A study of Bos taurus with 14 samples.

Results

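The mitochondrial genome of cattle encodes a small set of proteins, and 10 of these genes are described here: ND1, ND2, ND3, ND4, ND4L, ND5, ND6, COX1, CYTB and ATP8. They were chosen by symbol, written without an MT prefix, in the gene column of the deposited tables. All 10 were usable among the 24616 features of the 8 tables of later stem cell passages, where CYTB is written in lower case. Among the 23159 usable features of the 6 tables of controls and passage 10 (P10), 6 were usable: ND1, ND2, ND4L, ND5, ND6 and ATP8. ND3, ND4, COX1 and CYTB were not analysed in those 6 libraries. The later tables also list ATP6, COX3 and COX2 (written COII), which are encoded by the same genome and are given where they help to read a member.

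Total RNA of 14 cattle samples was sequenced, 1 library each. The stem cells were CTFR-bESC lines A and B, derived from blastocysts and grown on mouse embryonic fibroblast feeders in a base medium without growth factors, to which human FGF2 and IWR1, an inhibitor of WNT signalling, were added. Line A was sampled at P10, P13, P23, P35 and P45, and line B at P10, P12, P24, P35 and P46, so that the libraries of a line are serial passages of 1 culture. The controls were 2 pools, A and B, of 10 whole in vivo blastocysts each and 2 skin fibroblast lines, A and B. No culture conditions are given for the fibroblasts, and the sources used here do not say whether feeder cells were removed before RNA was taken. A p-value therefore measures the spread between these samples only. In bulk RNA, fewer cells of a type and less RNA per cell cannot be told apart.

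Mitochondrial DNA is transcribed as long precursors that cover most of each strand, and the messages are cut out of them, in large part at the transfer RNAs that lie between the genes. ND6 is encoded on the light strand, and the other 9 members on the heavy strand. The ND proteins are core subunits of complex I, which takes electrons from NADH. CYTB is a core subunit of complex III, COX1 the catalytic subunit of complex IV, and ATP8 a small subunit of ATP synthase. Members made from a common precursor can still differ in level through processing and decay, and the enzymes that transcribe and process the RNA are encoded in the nucleus.

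The deposited unit is RPKM, reads scaled by gene length and by the mapped reads of the library. It puts genes of unlike length on 1 scale, but whether a part of gene length remains in it was not tested. With the gene lengths of the RefSeq table, the RPKM of each member gave whole reads for 1 library total. The total that fitted best was 24823605 to 35908036 reads in the 8 later libraries, where 13 mitochondrial genes came out whole within 2.3e-05 of a read. In the 6 first libraries it was 18619871 to 28978841 reads, with the 6 genes whole within 0.021, and the fit was least distinct for line A at P10. The members then rested on at least 1150 reads (ATP8 in blastocyst pool A) and at most 447241 (COX1 in line B at P24). Counting error was at most 2.95% of a value in the first libraries and 1.57% in the later ones. These errors assume that reads are independent molecules.

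The 6 members listed everywhere together held 2.05% and 2.86% of all RPKM in blastocyst pools A and B, 3.08% and 2.84% in fibroblast lines A and B, and 3.48% and 2.97% in lines A and B at P10. Over the later passages the same 6 genes took 1.51% to 2.08%, and all 10 members took 3.57% to 4.33% in line A and 3.88% to 5.12% in line B. COX1 alone was the most abundant of all features in 5 of these 8 libraries. Counted as reads, which weighs a gene by its length, the 6 genes made up 0.821% and 1.06% of the library total in blastocysts, 0.906% and 0.761% in fibroblasts, 0.964% and 0.87% at P10, and 0.606% to 0.818% later. The read share of the 6 genes thus lay between 0.606% and 1.06% in all 14 libraries. In blastocyst pools A and B, however, 35.5% and 32.4% of that total were reads of 2 other features, described next.

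The blastocyst libraries stood apart in another respect. Features ENSBTAG00000043567 and ENSBTAG00000043570, for which the tables give no name, had 96450 and 167400 RPKM in pool A and 92520 and 149700 RPKM in pool B, or 65.8% and 64.0% of the summed RPKM. Their own RPKM gave whole reads in all 8 later libraries, within 0.01 of a read, only for lengths of 955 and 1571 bases or multiples of these, which are the lengths of the small and large mitochondrial ribosomal RNA genes in the RefSeq table. They took 35.5% and 32.4% of the reads of the blastocyst pools and 0.026% to 0.112% elsewhere. Whether all libraries were prepared alike, with the same selection of RNA, was not tested. Every RPKM of a blastocyst library is a share of a total that includes these reads, so comparisons with blastocysts are given under other scalings too. Without these features, the 6 members took 6.0% and 7.94% of the summed RPKM in blastocysts and kept about their share elsewhere, 2.84% to 3.48% in fibroblasts and at P10.

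**Figure D1:**
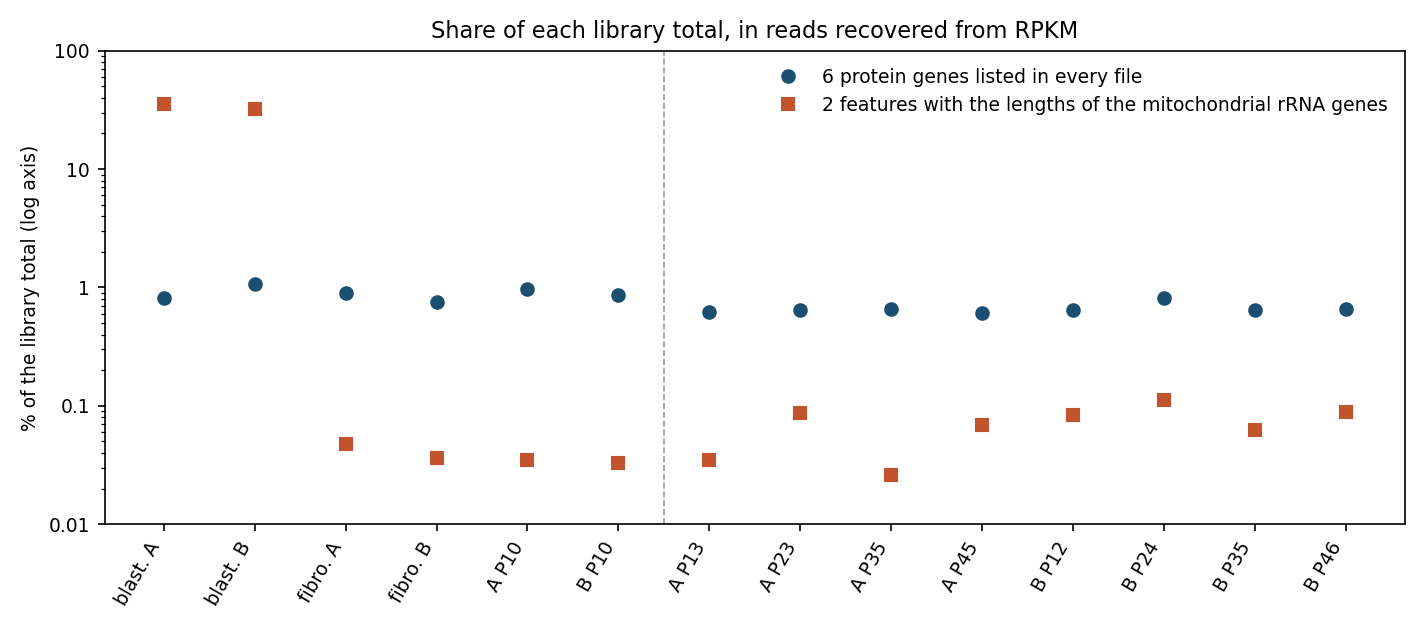
Percent of the library total (log axis) taken by the 6 protein genes listed in every file (circles) and by the 2 features with the lengths of the mitochondrial ribosomal RNA genes (squares), 1 point per library. The circles lie between 0.606% and 1.06% in all 14 libraries, while the squares are at 35.5% and 32.4% in the blastocyst pools and at most 0.112% in the others.

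The labels were checked against marker genes. The 7 fibroblast markers summed to 5735 to 6074 RPKM in fibroblasts, 2.68 to 3.17 in blastocysts, 108 to 216 at P10 and 199 to 315 in the later passages. The stem cell list (POU5F1, SOX2, NANOG and others) summed to 529 to 642 RPKM at P10, 79.1 to 87.7 in blastocysts and 0.257 to 1.81 in fibroblasts, and its 4 genes listed in the later tables to 309 to 415. The trophectoderm list summed to 665 to 957 RPKM in blastocysts, 157 to 188 at P10 and 11.8 to 15.6 in fibroblasts. In the later passages it summed to 235 to 738 RPKM in line A and 536 to 788 in line B, which reaches the blastocyst range, with 2 of its 7 genes at 1 RPKM or more in each stem cell library and 6 in each blastocyst pool. The part of these cell mixtures in the members' levels was not tested.

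Among the complex I genes, ND5 and ND4L were highest in blastocysts. ND5, a subunit of the proton-pumping arm of complex I, had 2094 and 2612 RPKM in blastocyst pools A and B, 1200 and 1031 in fibroblast lines A and B, and 1285 and 709 in lines A and B at P10. ND4L, a small membrane subunit of complex I, had 1593 and 1981 RPKM in blastocysts, 759 and 778 in fibroblasts, and 988 and 740 at P10. For both genes the blastocyst pools lay above all other libraries, and the fibroblast and P10 values lay close together or overlapped.

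ND2 and ND6 were ordered the other way. ND2, a further membrane subunit of complex I, had 894 and 1012 RPKM in blastocysts, 1927 and 1603 in fibroblasts, and 2396 and 3506 at P10, with no overlap between the 3 groups. ND6, the light-strand gene, had 650 and 923 RPKM in blastocysts, 1954 and 1400 in fibroblasts, and 1500 and 781 at P10. Its P10 values overlapped both controls. ND1, which lies next to the ribosomal RNA genes and encodes a subunit near the quinone site of complex I, had 2711 and 3822 RPKM in blastocysts, 2750 and 2330 in fibroblasts, and 3332 and 2771 at P10, and the groups overlapped.

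ATP8 differed most between groups. It had 300 and 452 RPKM in blastocysts, 4855 and 4295 in fibroblasts, and 2650 and 2341 at P10, with no overlap. Among the 6 members ATP8 was therefore the lowest in blastocysts, the highest in fibroblasts, and behind ND1 and ND2 in mean level at P10. In blastocysts the order was ND1, ND5, ND4L, ND2, ND6 and ATP8, the same in both pools, although the ranges of ND2 and ND6 overlapped. In fibroblasts it was ATP8, ND1, ND2, ND6, ND5 and ND4L, where ND2 and ND6 changed places between the lines. At P10 the lines disagreed on the order of ND1, ND2 and ATP8, and on that of ND5 and ND4L.

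**Figure D2:**
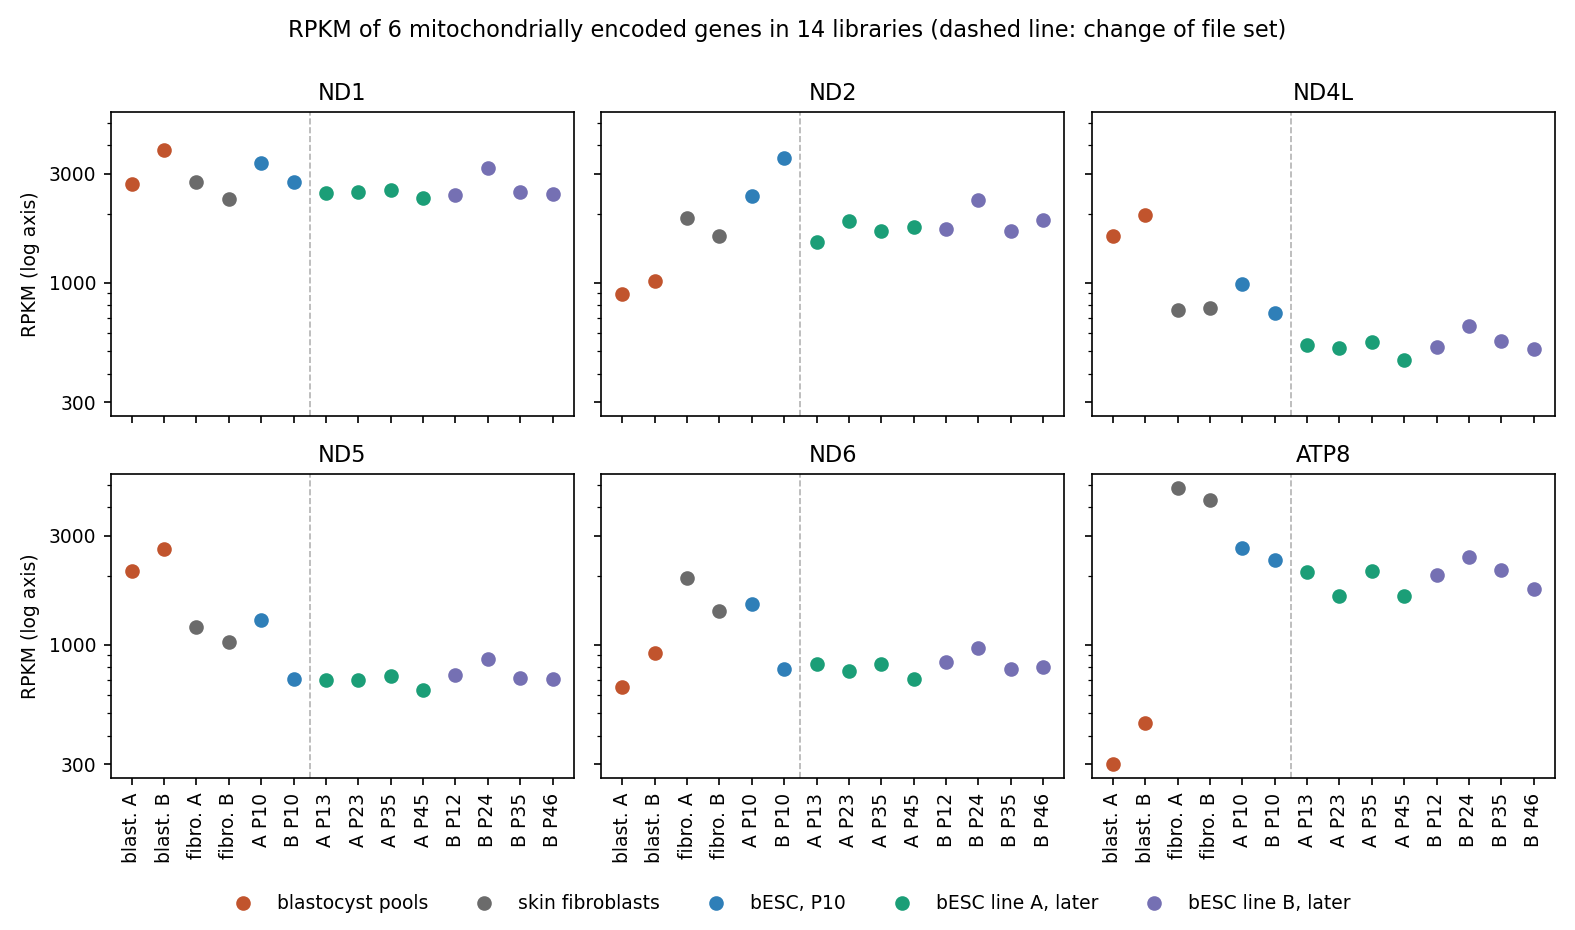
RPKM (log axis) of the 6 genes listed in every file, 1 point per library, with the first 6 libraries to the left of the dashed line and the 8 later passages to the right. ATP8 ranges from 300 RPKM in blastocyst pool A to 4855 in fibroblast line A, while ND4L and ND5 are highest in the blastocyst pools.

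Tests were made with limma on log2(RPKM + 1) over all 11761 features that passed the filter, in 1 fit of the 6 libraries. All 6 members passed, each above the 1 RPKM limit in all 6 libraries. Each pair of comparisons shares a group of libraries. Against blastocysts, 4 of the 6 members were called at P10, 2 higher and 2 lower, where 73.0% of all features were called higher and 7.33% lower. ATP8 was higher by 2.75 ± 0.28 log2 (SE, adjusted p = 0.000138) and ND2 by 1.61 ± 0.28 (adjusted p = 0.00166). ND4L was lower (-1.05 ± 0.25, adjusted p = 0.00666), as was ND5 (-1.29 ± 0.33, adjusted p = 0.0101), while ND1 (-0.08) and ND6 (0.48) did not pass.

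Of the calls in that comparison, 90.9% were higher at P10 as deposited, 49.7% under quantile normalization, 53.7% under scaling by the median of ratios and 67.5% after rescaling without the 2 most abundant features of each library. The median feature stood at 1.43 log2 as deposited, and at -0.01, 0.11 and 0.52 under these scalings, while the median of the 6 members was 0.20 as deposited. Relative to the median feature as deposited, ATP8 stood at 1.33, ND2 at 0.18, ND6 at -0.95, ND1 at -1.51, ND4L at -2.48 and ND5 at -2.72. ATP8 stayed higher and ND4L and ND5 stayed lower, each past the threshold, under each of the 3 other scalings. ATP8 then ranged from 0.94 to 1.91, ND4L from -2.87 to -1.79 and ND5 from -3.10 to -1.85. ND5 lost its call without blastocyst pool B (adjusted p = 0.0558). The call of ND2 ended under the median of ratios (-0.21, adjusted p = 0.546) and without the most abundant features (0.26, adjusted p = 0.385). ND1 was called lower under these scalings, at -1.90 and -1.43, and ND6 under the median of ratios, at -1.33 (adjusted p = 0.0193).

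Between blastocysts and fibroblasts, 5 of the 6 members were called, 2 higher in blastocysts and 3 lower, where 11.0% of all features were called higher and 63.4% lower. ATP8 was lower in blastocysts by the largest amount of the 6 (-3.63 ± 0.28 log2, adjusted p = 5.07e-05). ND4L (1.21 ± 0.25, adjusted p = 0.00395) and ND5 (1.07 ± 0.33, adjusted p = 0.0237) were higher. ND2 (-0.88, adjusted p = 0.0252) and ND6 (-1.09, adjusted p = 0.0364) were lower as deposited, but their sign turned under each of the 3 other scalings, to 0.61 to 0.68 for ND2 and 0.43 to 0.47 for ND6. Without the 2 most abundant features, ND2 was called higher in blastocysts (0.68, adjusted p = 0.0443), the opposite of the call as deposited. ND1 stood at 0.35 as deposited and at 1.91 under the median of ratios and without the most abundant features, where it was called.

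The calls of ATP8 and ND4L between blastocysts and fibroblasts held under every alternative run. The call of ND5 was lost without a filter on low values (adjusted p = 0.0699), without blastocyst pool B (0.110), without fibroblast line A (0.0674) and without fibroblast line B (0.117), all in the same direction. The calls of ND2 and ND6 were each lost when any of the 4 libraries compared was left out. Of all calls, 14.7% were higher in blastocysts as deposited and 47.2% to 51.9% under the 3 other scalings. The median feature stood at -1.15 log2 as deposited, relative to which ND4L was at 2.36, ND5 at 2.23, ND1 at 1.5, ND2 at 0.27, ND6 at 0.06 and ATP8 at -2.47.

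Against fibroblasts, 1 of the 6 members was called at P10, where 57.3% of all features were called in either direction. ATP8 was lower at P10 (-0.87 ± 0.28 log2, adjusted p = 0.0348), and at -1.11 relative to the median feature, which stood at 0.23. Of all calls, 61.8% were higher at P10 as deposited, 53.2% under quantile normalization, 51.0% under the median of ratios and 70.3% without the most abundant features. The last scaling divides each library by the summed RPKM of its other features. Those 2 features held 2.4% to 3.36% of the summed RPKM in these 4 libraries, with ND1 among them in line A and ND2 in line B. The summed RPKM itself differed, at 435800 and 402900 in fibroblast lines A and B and 349500 and 365200 at P10. This scaling evens out that difference too. The call of ATP8 was kept in a fit without the blastocyst libraries (adjusted p = 0.0485) and under the median of ratios (-1.13, adjusted p = 0.0154). It was lost under quantile normalization (-0.24, adjusted p = 0.534), without the most abundant features (-0.66, adjusted p = 0.0738), without a filter (adjusted p = 0.0945), and when any of the 4 libraries compared was left out (adjusted p = 0.0774 to 0.158).

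The other 5 members lay between -0.61 (ND6) and 0.72 (ND2) and did not pass. ND2 missed the threshold as deposited (adjusted p = 0.0655) and passed under quantile normalization (2.51, adjusted p = 0.0125), without the most abundant features (0.94, adjusted p = 0.0168) and without line A at P10 (1.00, adjusted p = 0.0446). ND1 passed under quantile normalization too (1.90, adjusted p = 0.0365), against 0.26 as deposited. Quantile normalization was run over all 6 libraries, blastocysts included, and gives each rank its mean over them. At P10, ND1 in line A and ND2 in line B held rank 2. In blastocyst pools A and B that rank was held by ENSBTAG00000043567, at 96450 and 92520 RPKM. The normalized values of ND1 and ND2 therefore take in those of that feature, and its part in the 2 calls was not tested. The members' standard errors reached 0.38 log2 in this fit, and the missed threshold does not show that ND1, ND2, ND4L, ND5 or ND6 were equal in both cell types.

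**Figure D3:**
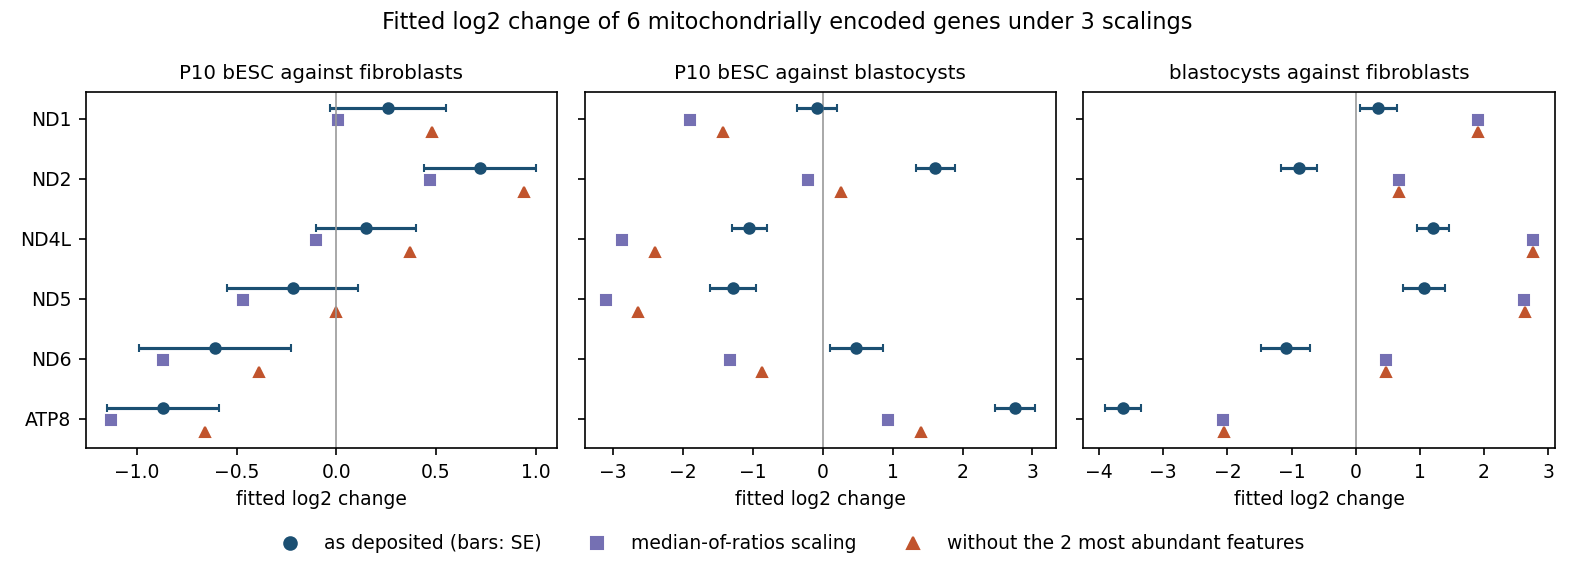
Fitted log2 change of 6 genes in 3 comparisons as deposited (circles, bars are the SE of the fit) and under 2 other scalings (squares and triangles). ATP8, ND4L and ND5 keep their side of 0 in both comparisons with blastocysts under these scalings, whereas ND2 and ND6 change sign in both under at least 1 of them. Against fibroblasts at P10, ND4L also changes sign (0.15 and -0.10) and ND5 moves to 0.

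A ratio of members within 1 library does not depend on the library total, so the make-up of the 6-gene sum was compared between groups as a description. Such a ratio can still depend on how a library was prepared, and that part was not tested. ATP8 made up 3.6% and 4.2% of the 6-gene RPKM sum in blastocysts, 36.1% and 37.6% in fibroblasts, and 21.6% and 21.8% at P10. The 8 later libraries lay at 20.5% to 25.6%, close to P10. The range of ATP8 thus did not overlap between blastocysts, fibroblasts and stem cells.

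ND5 took 24.2% and 25.4% of the sum in blastocysts and 6.5% to 10.6% in all other libraries. ND4L took 18.3% and 19.3% in blastocysts and 5.6% to 8.1% elsewhere. ND1 took 32.9% and 35.4% in blastocysts and 20.4% and 20.5% in fibroblasts, with 25.5% to 31.2% in the stem cells between them. ND2 had 9.4% and 10.8% in blastocysts, 14% and 14.3% in fibroblasts and 18.6% to 32.3% in the stem cells. ND6 had 7.9% and 8.5% in blastocysts, 12.2% and 14.5% in fibroblasts and 7.2% to 12.3% in the stem cells.

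The level of ATP8 relative to ND1 was 0.11 and 0.12 in blastocysts, 1.77 and 1.84 in fibroblasts, 0.80 and 0.84 at P10, and 0.66 to 0.85 later. ND5 stood at 2.34 and 2.58 times ND2 in blastocysts and at 0.20 to 0.64 of it elsewhere. The light-strand gene ND6 stood at 0.31 and 0.35 of its heavy-strand neighbour ND5 in blastocysts, 1.36 and 1.63 in fibroblasts, 1.10 and 1.17 at P10 and 1.09 to 1.17 later. ND5 and ND6 overlap by 17 bases in the RefSeq annotation, ND4L and ND4 by 7, and ATP8 and ATP6 by 40. The sources used here do not say whether reads were counted by strand or how reads of overlapping genes or of nuclear copies of mitochondrial DNA were treated, so ND6 and ATP8 are the less certain members. ATP8 is also the shortest, at 201 bases against 1821 for ND5, and ND4L is the next shortest, at 297. In the later libraries ATP6 stood at 1.775 to 1.964 times its overlapping neighbour ATP8, and ND4 at 1.992 to 2.157 times ND4L. The part of gene length and RNA fragment size in the levels of ATP8 and ND4L was not tested.

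**Figure D4:**
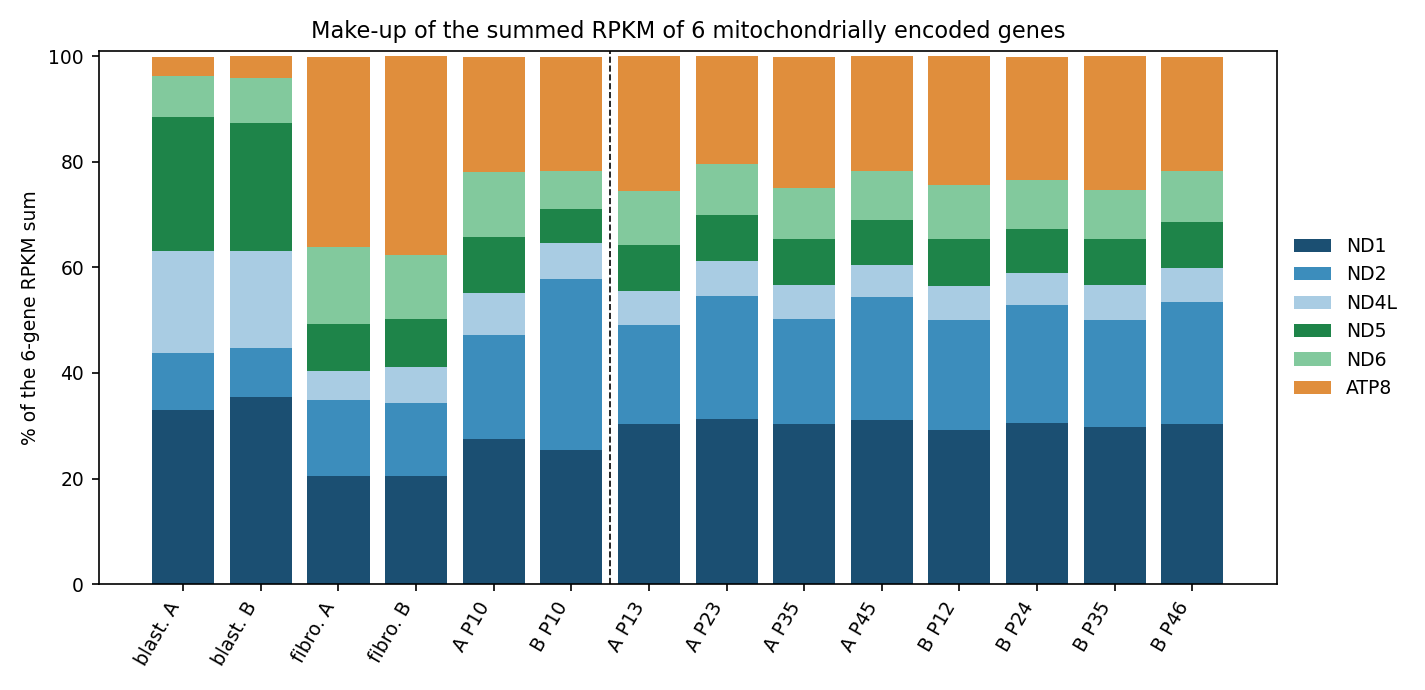
Make-up of the summed RPKM of 6 mitochondrially encoded genes in each library, in percent of their sum. ATP8 fills 3.6% and 4.2% of the bar in blastocysts, 36.1% and 37.6% in fibroblasts and 20.5% to 25.6% in the stem cells, and ND4L and ND5 are widest in blastocysts.

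At P10 the stem cell lines stood apart in 4 genes. Line A had 1285 RPKM of ND5, 1500 of ND6 and 988 of ND4L, and line B had 709, 781 and 740. ND2 was ordered the other way, with 2396 RPKM for line A and 3506 for line B, so that ND5 stood at 0.54 of ND2 in line A and 0.20 in line B. Over the later passages this ratio was 0.36 to 0.47 in line A and 0.37 to 0.43 in line B. With 1 library per line at P10, this difference has no replicate.

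The P10 and later tables were made with different feature lists, so their levels are set side by side without a test. In line A, ND5, ND6 and ND4L at P10 (1285, 1500 and 988 RPKM) lay above the later maxima of 732, 823 and 550. In line B, ND4L at P10 (740 RPKM) also lay above its later maximum, 646, while ND5 (709) lay inside its later range of 708 to 862 and ND6 (781) below its range of 786 to 966. ND2 at P10 was above its later range in both lines, at 2396 against 1508 to 1870 in line A and 3506 against 1688 to 2304 in line B.

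All 10 members could be ordered by level in the 8 later libraries. COX1 was the highest, with a median of 6340 RPKM and a range of 5306 to 9186 that overlapped no other member. ND3, a small membrane subunit of complex I, had a median of 2607, ND1 2474, ATP8 2044, ND2 1737 and CYTB 1605 RPKM. These neighbours overlapped in range: ND3 was above ND1 in 5 of 8 libraries, ATP8 above ND2 in 5 and ND2 above CYTB in 5, while ND1 was above ATP8 in all 8. ND4, the partner of ND4L in the proton-pumping arm, had a median of 1103 RPKM, below every CYTB value. ND6 (808), ND5 (712) and ND4L (529) followed in the same order in all 8 libraries.

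COX1, the catalytic core of complex IV, did not differ between the lines beyond the test. It had 6556, 6081, 5306 and 5408 RPKM in line A at P13, P23, P35 and P45, and 7131, 9186, 7516 and 6125 RPKM in line B at P12, P24, P35 and P46. The lines overlapped through line B at P46. The fitted difference of line A from line B was -0.35 ± 0.12 log2 (adjusted p = 0.734, unadjusted p = 0.0187). COII, the neighbouring complex IV gene, stood at -0.22 ± 0.11 (adjusted p = 0.734).

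Of the members, CYTB, ND3 and ATP8 varied most within line A, a pattern picked out after the values were seen. CYTB had 1906, 1354, 2031 and 1379 RPKM in line A at P13, P23, P35 and P45, and 1512, 1698, 1795 and 1342 in line B. ND3 had 2889, 2463, 3159 and 2459 RPKM over the passages of line A and 2728, 2928, 2486 and 2461 over those of line B. In line A both genes were higher at P13 and P35 than at P23 and P45. ATP8 had 2072, 1636, 2090 and 1634 RPKM across line A and 2017, 2412, 2116 and 1752 across line B, and so followed the same order in line A. ATP6, its overlapping neighbour, did too, with 3946, 3154, 4042 and 3207 RPKM in line A, as did COX3, with 3972, 3720, 4314 and 3540. In these same 2 libraries the features with the lengths of the ribosomal RNA genes were lowest, at 0.035% and 0.026% of reads against 0.087% and 0.069%. The 7 fibroblast markers summed to 288 and 315 RPKM there, against 199 and 219 at P23 and P45, and the trophectoderm list to 235 and 340 RPKM, against 738 and 632. The part of any of these in the levels of CYTB, ND3 and ATP8 was not tested.

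ND2 did not share that pattern, with 1508, 1870, 1679 and 1757 RPKM for line A and 1717, 2304, 1688 and 1880 for line B. ND1 had 2460, 2494, 2557 and 2339 RPKM over the line A passages and 2412, 3161, 2489 and 2455 over those of line B, so that line B at P24 stood above all others. ND4, ND4L, ND5 and ND6 moved in narrow ranges, 973 to 1287, 458 to 646, 634 to 862 and 708 to 966 RPKM over the 8 libraries. In line A all of these were also higher at P13 and P35 than at P23 and P45, by smaller steps. ND4 had 1128, 1057, 1186 and 973 RPKM over these passages in turn, and ND5 had 702.3, 700.6, 732.5 and 634.4. ND1 and COX1, like ND2, did not follow that order. Line B at P24 was the highest of the 8 libraries for 8 of the 10 members, all but ND3 and CYTB, and line A at P45 the lowest for 7.

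**Figure D5:**
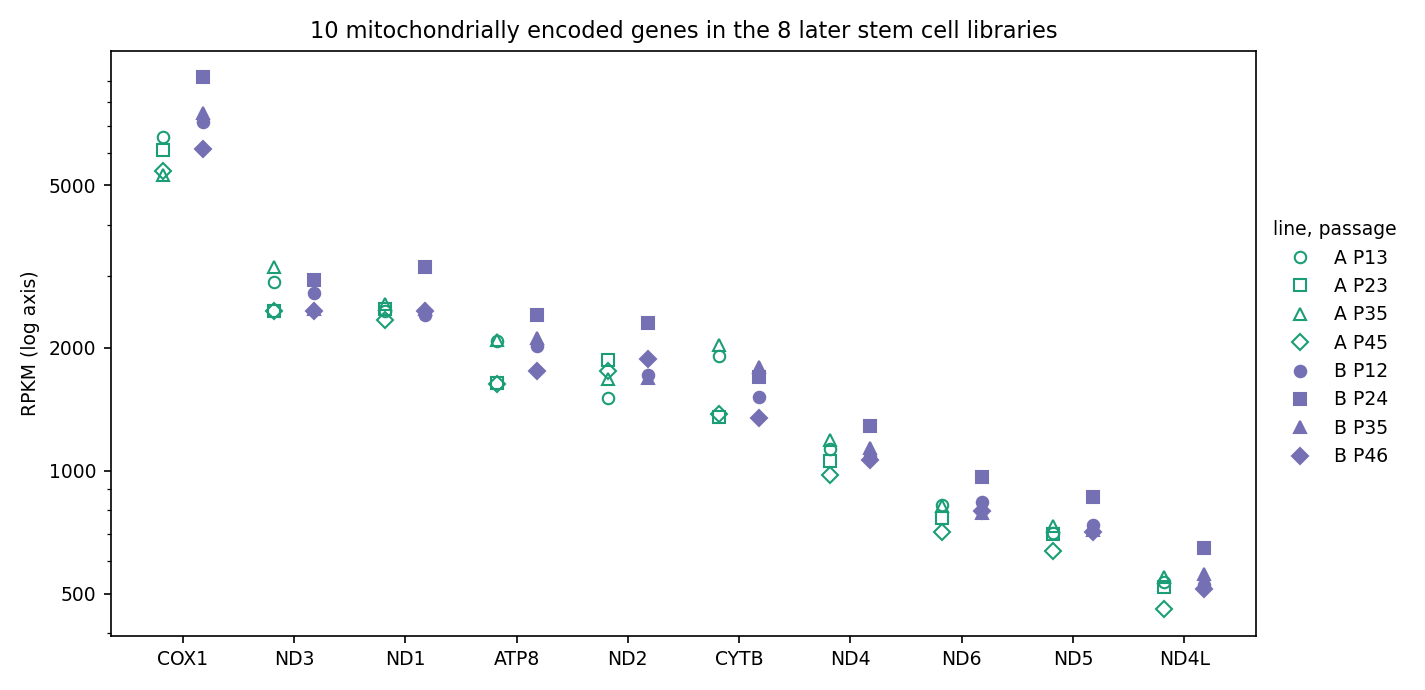
RPKM (log axis) of the 10 members in the 8 later libraries, with line A as open and line B as filled symbols and the passages by shape. COX1 lies at 5306 to 9186 RPKM, above every other member, and line B at P24 is the highest point for 8 of the 10 genes.

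None of the 10 members was called in the fit of the 8 later libraries, with 12785 features tested. For line A against line B, 2 features in all (0.0156%) were called, ULBP3 and SYCP3, both lower in line A and both lost without a filter (adjusted p = 0.058), and 1 member, COX1, had an unadjusted p under 0.05, as had 755 features. The members ranged from -0.35 (COX1) to 0.05 (CYTB), 8 of 10 below 0, with a median of -0.12 against 0.04 for all features. For the slope per 10 passages, 0.0% of features were called and 0 members and 494 features had an unadjusted p under 0.05. The member slopes lay between -0.09 (COX1) and 0.02 (ND2) log2 per 10 passages, with standard errors of at most 0.06. For the difference of slopes between lines, 0.0% of features were called and 0 members and 83 features had an unadjusted p under 0.05. No other tool was run on these values.

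The SD of a member over the 8 later libraries was 0.12 to 0.26 log2, with a median of 0.14, against a median of 0.13 over the 180 features with a mean of 400 RPKM or more and 0.17 over all 12785 tested. The members did not all move together across these 8 libraries. ND5 and ND6, on opposite strands, had a Pearson r of 0.97, and ND2 and CYTB had an r of -0.34, over libraries that are serial passages of 2 cultures and whose members share a library total.

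The genes outside the list whose log2 level was most like the mean of the 6 common members over the 8 libraries were COII (r = 0.902), BOLA-A (0.901), FANCI (0.895), COX3 (0.888) and LAMC1 (0.859), out of 5371 genes screened. COII and COX3 are mitochondrially encoded subunits of complex IV. COII had 2304 to 3638 RPKM and COX3 had 3540 to 4553. BOLA-A is a class I histocompatibility gene, at 11.6 to 25.1 RPKM. FANCI, a DNA repair gene, and LAMC1, a laminin chain, spanned only 16.0 to 19.8 and 22.4 to 25.2 RPKM.

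The nuclear genes that act on mitochondrial DNA were described from lists. Of 8 tested genes of mitochondrial transcription and replication, 4 were higher and 0 lower at P10 than in fibroblasts. In that comparison 4160 of all 11761 features were called higher and 2576 lower. Against blastocysts 8 of this list were higher at P10, where 73.0% of all features were called higher. Against fibroblasts the median of this list was 0.77 log2, where the median feature stood at 0.23, and 4 to 6 were called higher and 0 lower under the 3 other scalings. Against blastocysts it was 1.44, where the median feature stood at 1.43, and the count fell under the other scalings to 1 higher and 1 lower (quantile), 2 and 2 (median of ratios) and 2 and 0 (without the 2 most abundant features). TFAM, which packages mitochondrial DNA and starts its transcription, had 6.79 and 9.64 RPKM in blastocysts, 5.67 and 8.46 in fibroblasts and 31.8 and 20.8 at P10 (1.75 ± 0.30 log2 against fibroblasts, adjusted p = 0.00275). POLRMT, the mitochondrial RNA polymerase, had 3.29 and 2.59 RPKM in blastocysts, 3.47 and 3.14 in fibroblasts and 8.94 and 8.78 at P10 (1.20 ± 0.20 against fibroblasts, adjusted p = 0.00259). MGME1, a nuclease of mitochondrial DNA maintenance, rose by 2.21 ± 0.23 log2 against fibroblasts (adjusted p = 0.000379). Of the 6 members, ND1, ND2 and ND4L had a higher mean RPKM at P10 than in fibroblasts and ATP8, ND5 and ND6 a lower one, with ATP8 alone past the threshold, as given above.

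Of 19 tested genes of mitochondrial RNA stability, processing and translation, 3 were higher and 2 lower at P10 than in fibroblasts. Of all 11761 features, 4160 were called higher and 2576 lower there. Against blastocysts, 14 of the 19 were higher and 1 lower at P10, where 73.0% of all features were called higher and 7.33% lower. Between blastocysts and fibroblasts, 0 were higher and 11 lower in blastocysts, where 11.0% of all features were called higher and 63.4% lower. Both splits with blastocysts turned under the other scalings. Under quantile normalization, the median of ratios and without the 2 most abundant features, 1, 3 and 4 were higher and 8, 8 and 7 lower at P10 than in blastocysts, and 7, 8 and 9 were higher and 3, 2 and 2 lower in blastocysts than in fibroblasts. Against fibroblasts at P10 the same scalings gave 1, 1 and 5 higher and 3, 3 and 2 lower. SLIRP, which with LRPPRC stabilises mitochondrial messages, had 19.4 and 14.7 RPKM in blastocysts, 127 and 114 in fibroblasts and 99 and 85.1 at P10. It was lower in blastocysts than in fibroblasts by -2.76 ± 0.20 log2 (adjusted p = 3.8e-05), a call kept under each alternative run. FASTK, an RNA-binding protein known to act on ND6 RNA, had 1.42 and 1.16 RPKM in blastocysts, 29.2 and 25.4 in fibroblasts and 9.96 and 8.01 at P10. REXO2, a mitochondrial oligoribonuclease, had 27.1 and 24.9 RPKM in blastocysts, 98.9 and 92.7 in fibroblasts and 18.3 and 16.9 at P10.

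The nuclear partners of the members were counted by complex. At P10, 4160 of all 11761 features were called higher than in fibroblasts and 2576 lower. Against fibroblasts at P10, 1 of 7 complex I core subunits was higher and 1 lower, 0 of 9 complex III subunits higher and 2 lower, 0 of 3 complex IV subunits higher and 2 lower, and 2 of 11 ATP synthase subunits higher and 1 lower. For complex I the split depended on the scaling, with 1 higher and 1 lower under quantile normalization, 0 and 2 under the median of ratios, and 3 and 0 without the 2 most abundant features. For complex III these scalings gave 1, 0 and 1 higher and 2, 3 and 1 lower, for complex IV 0, 0 and 1 higher and 2 lower each, and for ATP synthase 2, 1 and 2 higher and 0, 2 and 0 lower. NDUFS8 rose (0.98 ± 0.30, adjusted p = 0.0282) and NDUFS7 fell (-0.78 ± 0.26, adjusted p = 0.0405), both subunits of the peripheral arm of complex I, but each call was lost under other settings (adjusted p up to 0.137 for NDUFS8 and 0.198 for NDUFS7). COX7A2, a complex IV subunit, had 350 and 251 RPKM in blastocysts, 134 and 119 in fibroblasts and 18.7 and 24.6 at P10. ATP5A1, the catalytic-head alpha subunit of the ATP synthase to which ATP8 belongs, had 228 and 214 RPKM in blastocysts, 275 and 264 in fibroblasts and 480 and 534 at P10 (0.91 ± 0.18 against fibroblasts, adjusted p = 0.00503). Complex II has no mitochondrially encoded subunit, and 3 of its 4 genes were lower at P10 than in fibroblasts, and 2 to 3 under the other scalings.

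Of 6 tested nuclear regulators of mitochondrial biogenesis, 4 were higher and 0 lower at P10 than in fibroblasts, among them NRF1 (1.16 ± 0.23 log2, adjusted p = 0.00516) and PPRC1 (1.06 ± 0.20, adjusted p = 0.00411). Of all 11761 features, 4160 were called higher and 2576 lower in that comparison. Under the other scalings 3 (quantile), 2 (median of ratios) and 4 of the 6 regulators were higher and 0 lower. Of 13 genes of other mitochondrial proteins, listed as a sign of mitochondrial content, 3 were higher and 0 lower at P10 than in fibroblasts, TOMM20 (1.41 ± 0.17), TOMM40 (1.00 ± 0.17) and OPA1 (0.63 ± 0.20), of which OPA1 lost its call under 8 settings, the fit without blastocysts among them (adjusted p = 0.0587). Against fibroblasts at P10, 2 (quantile), 2 (median of ratios) and 4 of these 13 genes were higher under the other scalings, and 0, 1 and 0 lower. CS, citrate synthase, had 241 and 209 RPKM in blastocysts, 59.9 and 46.3 in fibroblasts and 62.1 and 75.4 at P10, and was higher in blastocysts than in fibroblasts (2.07 ± 0.21, adjusted p = 0.000138). Its list as a whole had 2 genes higher and 6 lower there, where 11.0% of all features were called higher and 63.4% lower. The median of the list was -0.32 log2, against -1.15 for the median feature. Under the other scalings 7 genes of the list were higher and 1 to 3 lower. Within the later passages, no gene of these lists was called for line, slope or difference of slopes.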

How the data were processed

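The authors deposited 1 table of RPKM per library, with no read numbers. Genome build UMD3.1 and edgeR are named in the submitters' processing notes, without a role; for the aligner, the counter and the annotation, nothing is given in the sources used here. The 6 control and P10 tables share 1 feature list, from which 26 unreadable names, 25 date names and 21 blank values were left out. The 8 later tables share another, so tests were made within each set. Library totals and reads of mitochondrial genes were recovered from RPKM with RefSeq gene lengths (assembly ARS-UCD2.0, used for names and lengths only, and 10 of 10 members matched). Values were tested as log2(RPKM + 1) for features of at least 1 RPKM in at least 2 libraries, with limma 3.58.1 in R 4.3.3 (empirical Bayes with a mean-variance trend, two-sided, Benjamini-Hochberg adjusted p under 0.05), as 3 groups in the first set and as line and passage in the second. The fits were tested on simulated data. Other steps used numpy 2.4.6 and pandas 2.3.3 under Python 3.11.15. All members are named, up to 3 genes of smallest adjusted p per list and comparison could be named, and the 5 genes most like the members. The members and lists were chosen with earlier results of these data known. Alternatives were a pseudocount of 0.1, no filter, 3 other scalings, leaving out each library, a replicate block, and other sets of libraries or denominators. The fit without the blastocyst libraries was added after the data were seen.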

Additional observations from a re-analysis of the deposited data

Results flagged for a closer look

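ND1 in line B at P24 was 3161 RPKM, far from the other 3 later libraries of that line, which lay at 2412 to 2489 RPKM. The gap to the nearest library was 0.897 of the range of the 4. Of 22 such groups of 4 libraries examined, this was the only one past the limit, and chance passes about 1 in 20. The same library was the highest of the 8 later ones for 8 of the 10 members, so ND1 was not alone in its direction there.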

How the results depend on the processing

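The P10, blastocyst and fibroblast groups hold 2 libraries each, and the later libraries are serial passages of 2 cultures, which limits what a missed threshold shows. Between P10 and fibroblasts 6736 features were called, and 4345 to 6314 in the fits that left out 1 library (4345 without line A at P10). The 1 member called there became 0 without a filter, 2 under quantile normalization, 0 with a replicate block and 0 to 1 without 1 library. The 5 members called between blastocysts and fibroblasts became 2 without a filter, 3 under quantile normalization, 3 with a replicate block and 2 to 5 without 1 library. The letters A and B name separate lines and pools, and same-lettered deviations correlated at 0.187, -0.079 and -0.099. With 2 libraries a group, these values cannot show whether same-lettered libraries share more than a letter. With the block 6570, 9420 and 8689 features were called. The sign turned for ND2 at P10 against blastocysts under the median of ratios (-0.21), for ND6 there under the same scaling (-1.33), and between blastocysts and fibroblasts under quantile normalization, the median of ratios and without the 2 most abundant features for ND2 (0.61, 0.67 and 0.68, the last called, adjusted p = 0.0443) and ND6 (0.43, 0.47 and 0.47); the reads of the 2 features with ribosomal RNA lengths move with these scalings, and their part was not tested. Another 24 values changed sign for a gene that passed under neither setting. The 2 calls between lines became 5 with a pseudocount of 0.1, 0 without a filter, 1 under quantile normalization, 1 under the median of ratios, 0 without line A at P13 and P35, and 0 to 5 without 1 library. The 0 calls for the slope became 0 to 2 without 1 library (2 without line A at P23). In no alternative was a member called in the later passages. The mean share of summed RPKM was 2.46% in blastocysts, 2.96% in fibroblasts and 3.22% at P10, for the 6 members usable there. It was 3.95% in later line A and 4.39% in later line B, for all 10 members. These are shares of unlike sets of genes, as are those that follow unless the 6 common members are named. Without the 2 most abundant features of each library, members included, the mean share was 6.97% in blastocysts, 2.33% at P10, 3.1% in line A and 2.95% in line B. Relative to the RPKM summed over names shared by both sets of tables, it was 3.75% in fibroblasts and 4.09% at P10. It was 6.02% in line A and 6.74% in line B, with ND3, ND4, COX1 and CYTB still counted as members there. Those genes are not among the shared names, so these values of lines A and B have no common basis with P10. With the 6 common members the mean share of all summed RPKM was 1.63% in line A and 1.78% in line B, below the 3.22% at P10. Without the highest member it was 1.61%, 1.87%, 2.27%, 2.76% and 2.87% in the same order of groups.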
